A study of Mus musculus with 9 samples.

Results

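The neurotrophic factors and receptors described here are 8 genes chosen by name from the 35112 genes of the deposited table: the secreted factors Bdnf, Ntf3, Gdnf, Vgf and Fgf2 and the receptors Ntrk2, Ntrk3 and Ngfr. All 8 were among the 21900 genes with enough counts to test. They were measured by sequencing polyadenylated RNA from brains of wild type C57BL/6 mice, 3 mice in each of 3 groups, at 72 hours. The groups were a sham control, mice with an intracerebral haemorrhage (ICH), and mice with ICH that also received P7C3-A20, an aminopropyl carbazole studied as a neuroprotective compound. The labels give no age, brain region, haemorrhage method, dose or vehicle, so the ICH group and the treated group differ by whatever the treatment included. Libraries are named by group and replicate, such as ICH 2.

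Neurotrophins are secreted proteins that keep neurons alive and shape their connections. BDNF signals mainly through TrkB (Ntrk2) and neurotrophin-3 (Ntf3) mainly through TrkC (Ntrk3), which are receptor tyrosine kinases, while p75NTR (Ngfr) binds all neurotrophins and their uncleaved precursors. Gdnf acts through a GFRα co-receptor and Ret and supports dopaminergic and motor neurons. Vgf is a neuropeptide precursor that neurotrophins induce, and Fgf2 is a basic fibroblast growth factor that astrocytes make in large part.

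Libraries held 51537047 to 63324728 estimated counts, and the share of mitochondrially encoded transcripts was 9.14% to 18.5%, below 12% in sham 3, ICH 3 and ICH+P7C3-A20 2. Pan-neuronal, astrocyte and oligodendrocyte markers were present in every library, as a brain label requires, and striatal projection neuron markers summed to 1561 to 3915 CPM (counts scaled to library depth). ICH+P7C3-A20 1 stood apart in cortical and oligodendrocyte markers. Its cortical excitatory markers summed to 1245 CPM, against 145 to 497 CPM in the other libraries, and its oligodendrocyte markers to 5574 CPM, against 9066 to 15097 CPM. Other regional markers varied widely within groups. Choroid plexus markers summed to 28.5 to 639 CPM in sham, 33.6 to 3185 CPM in ICH and 84.0 to 2103 CPM in ICH+P7C3-A20. Thalamic markers summed to 84.9 CPM (sham 3) to 447 CPM in sham, and hypothalamic peptide markers to 2.56 to 72.6 CPM in sham and 1.96 to 77.0 CPM in ICH. In bulk tissue fewer cells of a type and less RNA per cell cannot be told apart. CPM are scaled to TMM-adjusted library totals and given per library in the order of replicates 1, 2 and 3. Group values are mean ± SD (n = 3), and log2 changes are given with a standard error derived from edgeR's F statistic.

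The members spanned a wide range of levels. By level scaled to the length of merged exons (FPKM), Vgf was first and Ntrk2 second in all 3 groups. The order of these 2 depends on the length used. Merged exons have 19292 bases for Ntrk2, 30170 for Ntrk3 and 2973 for Vgf. The longest listed transcripts have 8744, 19703 and 2834 bases, so FPKM sets the 2 receptors low per transcript. In CPM, without length scaling, Ntrk2 was above Vgf (sham means 611 and 172 CPM). Vgf reached 48.6 ± 14.2 FPKM in sham, 38.5 ± 1.06 FPKM in ICH and 46.4 ± 7.80 FPKM in ICH+P7C3-A20. Ntrk2 reached 26.1 ± 2.53, 27.8 ± 0.95 and 28.9 ± 1.77 FPKM in the same order, and its highest library (30.9 FPKM) lay under the lowest of Vgf (34.0 FPKM). Ntrk3 came next by mean, at 5.72 ± 1.16, 3.39 ± 0.03 and 4.67 ± 0.20 FPKM. Ngfr and Fgf2 had library values of 1.08 to 5.005 and 0.112 to 3.66 FPKM. Their order was not resolved, and Ngfr overlapped Ntrk3 in sham and both overlapped it in ICH, while in ICH+P7C3-A20 each Ntrk3 library was above theirs. Gdnf and Bdnf, at 0.246 to 1.22 and 0.414 to 1.91 FPKM, also overlapped, and in ICH+P7C3-A20 they overlapped Ngfr, Fgf2 or Ntf3 as well. Ntf3 had the lowest mean in each group, with libraries at 0 to 0.484 FPKM.

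**Figure D1:**
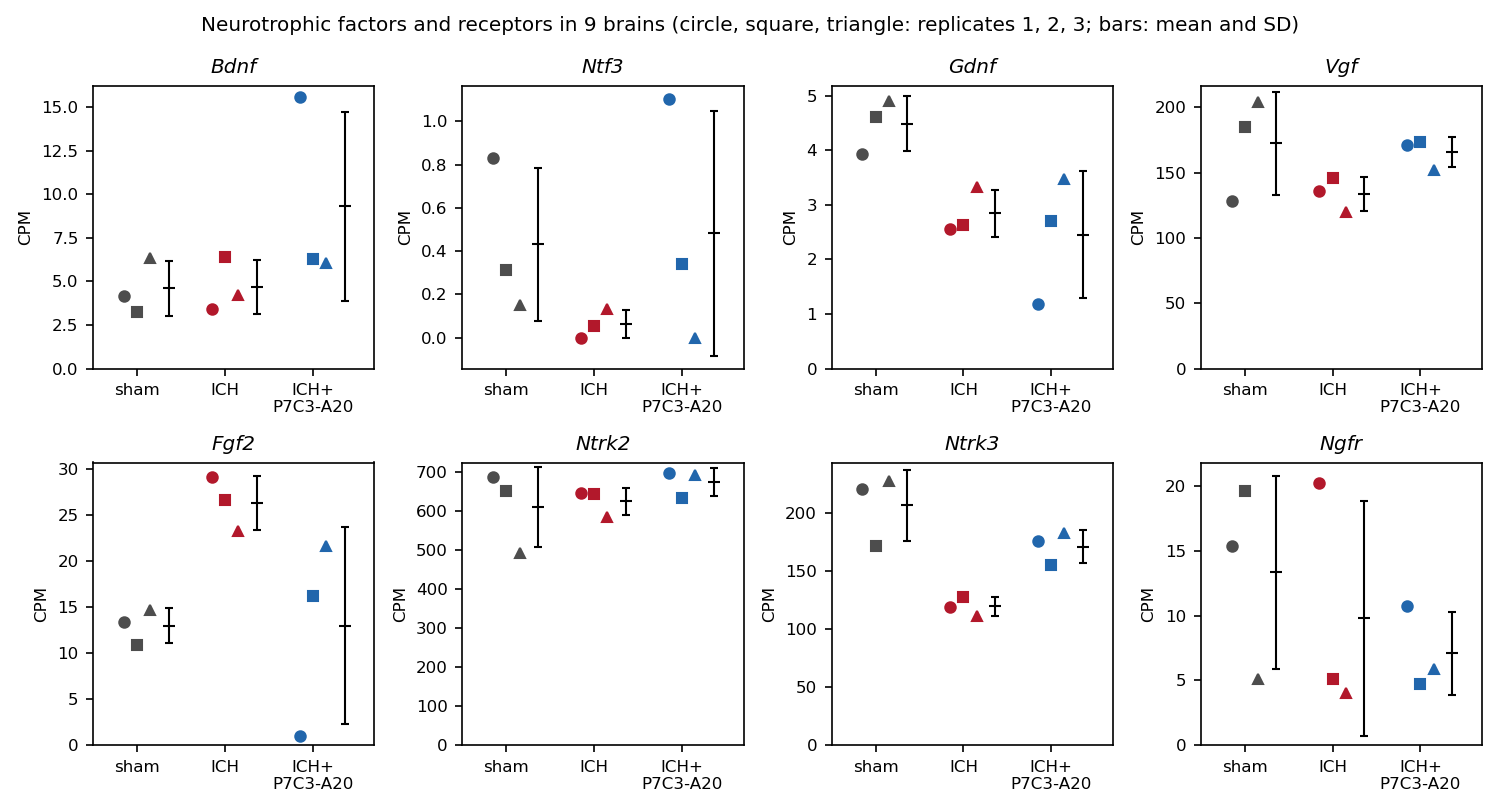
CPM (vertical axes, from 0, except that the Ntf3 axis runs below 0 for the lower error bar) of the 8 members in sham, ICH and ICH+P7C3-A20 brains. Each symbol is 1 library, with replicates 1, 2 and 3 as circle, square and triangle, and the black bars are mean ± SD (n = 3); the Ntrk3 groups ICH and ICH+P7C3-A20 are separate, and ICH+P7C3-A20 1 is the lowest Fgf2 point at 1.02 CPM and the highest Bdnf point at 15.6 CPM.

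ICH against sham addresses the effect of the haemorrhage on these transcripts. By edgeR's quasi-likelihood test with Benjamini-Hochberg adjustment over all tested genes, 1 of the 8 members was called lower in ICH at an adjusted p under 0.05, Ntrk3, and 0 were called higher. Over all tested genes 26.0% were called, 15.6% higher and 10.4% lower. The median log2 change was -0.41 over the members and 0.00 over all tested genes. ICH+P7C3-A20 against ICH compares the treated group with the ICH group, which differ by whatever the treatment included. Here 1 member was called higher, again Ntrk3, and 0 lower, against 2.69% and 6.05% of all tested genes and 8.74% in either direction. The members' median log2 change was 0.21, beside -0.01 over all tested genes. Between ICH+P7C3-A20 and sham edgeR called 0 of 8 members, with 2 at an unadjusted p under 0.05 (Bdnf and Gdnf), and DESeq2 called 0. Over all tested genes edgeR called 5.32% in either direction, 4.58% higher and 0.744% lower. The share of all tested genes at an unadjusted p under 0.05 was not counted, here or for the lists below. Such counts therefore have no baseline and are not calls. Groups did not overlap for 4, 3 and 1 members in the 3 comparisons, beside 42.1%, 33.6% and 20.4% of all tested genes. The first 2 comparisons share the ICH libraries, so opposite signs in them are not independent observations.

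**Figure D2:**
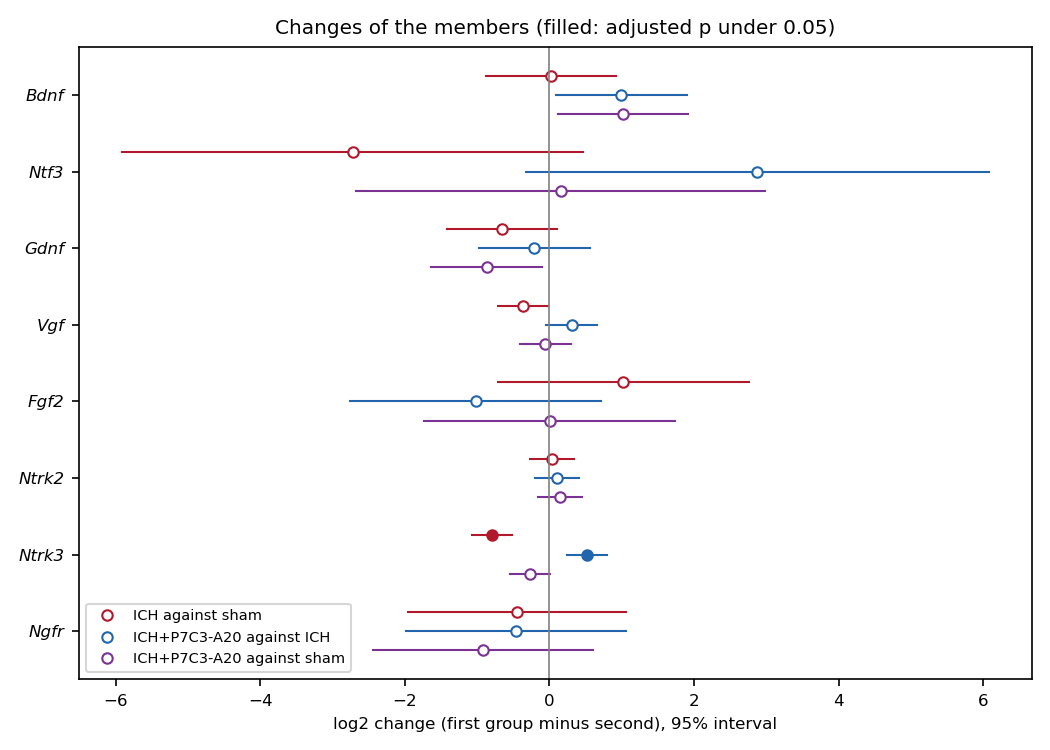
Log2 change of each member (horizontal axis, first group minus second) in ICH against sham (red), ICH+P7C3-A20 against ICH (blue) and ICH+P7C3-A20 against sham (purple), with its 95% interval. Filled points passed an adjusted p of 0.05, which were the 2 Ntrk3 values at -0.79 and 0.52; the Fgf2, Ntf3 and Ngfr intervals are the widest.

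Among the receptors, Ntrk3 moved in both comparisons. The 3 sham libraries held 221, 172 and 227 CPM, the ICH libraries 119, 127 and 112 CPM and the ICH+P7C3-A20 libraries 176, 155 and 183 CPM. Every ICH library was thus below every other library, while the treated libraries lay within or just under the sham range. Of all tested genes, 18.8% were lower without overlap in ICH than in sham. With treatment 15.1% were higher without overlap than in ICH. The ICH mean of 119 ± 7.92 CPM was 1.73-fold lower than the sham mean of 207 ± 30.6 CPM (log2 change -0.79 ± 0.13, 95% interval -1.07 to -0.51, edgeR adjusted p = 0.00111). This call held in all 9 fits that left out 1 library (log2 change -0.91 to -0.72) and in all 12 other fits. The ICH+P7C3-A20 mean of 171 ± 14.5 CPM was 1.43-fold higher than in ICH (log2 change 0.52 ± 0.13, 95% interval 0.24 to 0.79, edgeR adjusted p = 0.0309). That call was lost, by edgeR adjusted p, without ICH 1 (0.108), ICH 2 (0.0739), ICH 3 (0.124), ICH+P7C3-A20 1 (0.0889) or ICH+P7C3-A20 3 (0.0855), with a log2 change of 0.47 to 0.58 in all 9 such fits. It was also lost with limma on log2(FPKM + 1) (0.188), log2(FPKM + 0.1) (0.175) and genes of mean FPKM at least 1 (0.114). Treated and sham brains differed by -0.27 ± 0.12 (95% interval -0.55 to 0.00, edgeR adjusted p = 0.281). In the 3 libraries of low mitochondrial share, sham 3, ICH 3 and ICH+P7C3-A20 2 held 227, 112 and 155 CPM, and in the other 6 libraries both ICH values were again the lowest. With that share as a term the edgeR adjusted p was 0.000843 for ICH against sham and 0.0211 for ICH+P7C3-A20 against ICH.

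Pan-neuronal markers moved in the same direction as Ntrk3, while several lists of regional neurons did not. All 7 pan-neuronal markers fell in ICH, and their sum was 3551 to 3933 CPM in sham, 2212 to 2458 CPM in ICH and 2867 to 4484 CPM in ICH+P7C3-A20, where 1 of the 7, Rbfox3, rose against ICH. For each 1000 CPM of these markers there were 43.6 to 64.03 CPM of Ntrk3 in the sham libraries, 48.5 to 53.3 CPM in the ICH libraries and 39.2 to 59.7 CPM in the ICH+P7C3-A20 libraries. On that scale the 3 groups overlapped. Expressed this way Ntrk3 did not separate ICH from either group, although in CPM it did. The pan-neuronal sums of ICH+P7C3-A20 2 and 3 (2867 and 3059.5 CPM) lay below every sham library. All 7 striatal projection neuron markers fell in ICH as well. Between ICH+P7C3-A20 and ICH 0 of 7 were called, with 1 at an edgeR unadjusted p under 0.05. In ICH against sham edgeR called 0 of 7 cortical excitatory and 0 of 6 thalamic markers. It called 1 of 7 hippocampal, 1 of 5 cholinergic and 1 of 6 hypothalamic markers, all lower. The part of neuron content in the Ntrk3 values was not tested.

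**Figure D3:**
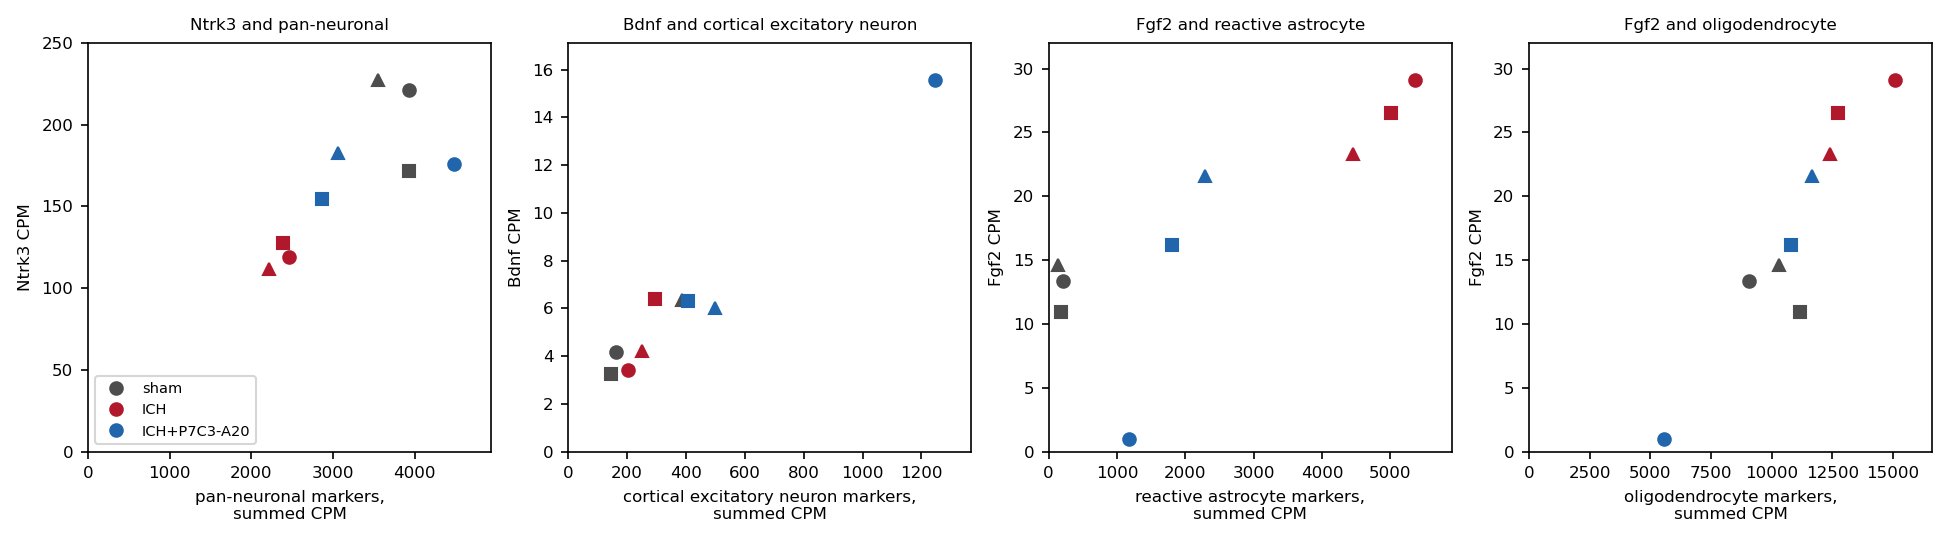
CPM of Ntrk3, Bdnf and Fgf2 (vertical axes) against the summed CPM of a marker list in the same library (horizontal axes), all axes from 0. Grey, red and blue are sham, ICH and ICH+P7C3-A20, and circle, square and triangle are replicates 1, 2 and 3; ICH+P7C3-A20 1 (blue circle) lies at 1245 CPM of cortical excitatory markers and 15.6 CPM of Bdnf, and at 1.02 CPM of Fgf2.

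Ntrk2, the BDNF receptor, was the steadiest member. The sham libraries held 688, 652 and 493 CPM, the ICH libraries 648, 644 and 586 CPM and the ICH+P7C3-A20 libraries 700, 633 and 693 CPM. The groups overlapped, and its highest library was 1.42 times its lowest. The log2 change was 0.03 ± 0.14 in ICH against sham (95% interval -0.27 to 0.34, edgeR adjusted p = 0.897). It was 0.11 ± 0.14 between ICH+P7C3-A20 and ICH (95% interval -0.19 to 0.41, edgeR adjusted p = 0.700). These intervals leave room for a 1.26-fold rise with ICH and a 1.33-fold rise with treatment. They equally leave room for falls, to log2 changes of -0.27 and -0.19. TrkB and TrkC are each made in kinase-bearing and truncated forms. The deposited values are 1 per gene over merged exons, so the forms were not resolved for either receptor.

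The 2 Trk genes are paralogues, of which Ntrk3 moved while no change was detected for Ntrk2. The region with the longest identical run of their coding sequences is shown. It marks the longest exact match and does not measure how much sequence the genes share in all. Capitals mark the 23 shared bases, written in the coding direction with 24 bases before and 20 after; the genome is GRCm38 with GENCODE M21 models, Ntrk2 at chr13:59054383-59054449 (+) and Ntrk3 at chr7:78250717-78250783 (-), each within 1 coding exon.
Ntrk2: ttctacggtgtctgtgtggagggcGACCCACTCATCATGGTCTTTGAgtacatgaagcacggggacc
Ntrk3: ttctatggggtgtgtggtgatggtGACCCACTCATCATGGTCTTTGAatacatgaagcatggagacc
The run is bases 1828 to 1850 of the 2463 coding bases of Ntrk2 and bases 1831 to 1853 of the 2592 of Ntrk3. The genes lie on different chromosomes, Ntrk2 (ENSMUSG00000055254) on chromosome 13 from 58806569 to 59133970 and Ntrk3 (ENSMUSG00000059146) on chromosome 7 from 78175959 to 78738012.

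Ngfr, the p75 receptor, varied within every group. The sham libraries held 15.4, 19.6 and 5.11 CPM, the ICH libraries 20.2, 5.10 and 4.03 CPM and the ICH+P7C3-A20 libraries 10.7, 4.71 and 5.86 CPM. Each group thus had both low and high libraries, and 5 of the 9 were between 4.03 and 5.86 CPM. The log2 change was -0.45 ± 0.67 in ICH against sham and -0.47 ± 0.67 between ICH+P7C3-A20 and ICH (edgeR adjusted p 0.694 and 0.747). Without ICH 1 the latter turned to 0.63 (edgeR adjusted p = 0.591) and the former went to -1.55 (0.0812). Forebrain cholinergic neurons are a known site of Ngfr, and the cholinergic markers summed to 70.5 to 87.2, 34.3 to 66.9 and 40.1 to 61.2 CPM in sham, ICH and ICH+P7C3-A20. Markers of Schwann cells, another known Ngfr source, summed to 37.0 to 45.4 CPM in sham, 87.3 to 110 CPM in ICH and 41.2 to 61.1 CPM in ICH+P7C3-A20, with 1 of 5 called higher in ICH, Pmp22. The part of either cell type in the Ngfr values was not tested.

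Among the ligands, Bdnf was level between sham and ICH. The sham libraries held 4.19, 3.26 and 6.34 CPM, the ICH libraries 3.40, 6.39 and 4.22 CPM and the ICH+P7C3-A20 libraries 15.6, 6.31 and 6.03 CPM. The groups overlapped in every comparison, and ICH+P7C3-A20 1 alone lay above the rest. The treated mean was 1.99-fold that of ICH (log2 change 0.99 ± 0.41, 95% interval of the fold 1.07 to 3.72), with an unadjusted p of 0.034 and an edgeR adjusted p of 0.164. Without ICH+P7C3-A20 1 the log2 change was 0.40 (edgeR adjusted p = 0.635). Against sham it was 1.02 ± 0.41 (edgeR adjusted p = 0.216), or 0.42 without that library (0.583). ICH differed from sham by 0.02 ± 0.41 (95% interval -0.88 to 0.92, edgeR adjusted p = 0.981).

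The Bdnf values moved with markers of cortical excitatory neurons, which make much of the brain's BDNF. Slc17a7, the vesicular glutamate transporter that defines them, was at 966, 269 and 340 CPM in the treated libraries, 74.9, 57.6 and 273 CPM in sham and 119, 191 and 164 CPM in ICH. For each 1000 CPM of cortical excitatory markers there were 16.4 to 26.1 CPM of Bdnf in the sham libraries, 16.8 to 21.6 CPM in the ICH libraries and 12.1 to 15.5 CPM in the treated libraries. The order of the groups was therefore reversed on that scale, with every treated library below every sham and ICH library. Slc17a7 is 1 of these markers and weighs heavily in their sum, with 966 of 1245 CPM in ICH+P7C3-A20 1 and 74.9 of 160 CPM in sham 1. The 7 markers summed to 145 to 387 CPM in sham, 202.2 to 296 CPM in ICH and 408 to 1245 CPM in ICH+P7C3-A20. edgeR called 0 of the 7 between ICH+P7C3-A20 and ICH. Of them 4 had an unadjusted p under 0.05, for which no share over all genes was counted. The antisense gene Gm45346, which shares 896 exonic bases (14.4%) with Bdnf in GENCODE M21, held 8, 4 and 8 counts in ICH+P7C3-A20 and 0 in all 6 other libraries. The strand setting of the counting is not given in the sources used here.

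Bdnf is transcribed from several start sites, many of them driven by neuronal activity through CREB, and Gdnf also has more than 1. RefSeq promoter sequences (250 bases before to 50 after a start, GRCm38.p6) matched 6 of the 8 members in 14 windows, with none for Vgf and Ntrk3. The full cyclic AMP response element TGACGTCA, present in 1.79% of 32851 such windows, was in 0 of the 14. Its half-site TGACG, searched on both strands and present in 20.8% of all windows, was in 1 of 7 Bdnf windows, 1 of 2 Gdnf windows and the Fgf2 window. The 100 bases before the Bdnf and Gdnf starts concerned are shown, 5′ to 3′ on the gene's strand, because activity-regulated genes moved with treatment while these 2 factors were not called. Capitals mark the half-site, read here as CGTCA. The Bdnf stretch is chr2:109692336-109692435 (+) and the Gdnf stretch chr15:7809948-7810047 (+), and neither overlaps an annotated exon.
Bdnf: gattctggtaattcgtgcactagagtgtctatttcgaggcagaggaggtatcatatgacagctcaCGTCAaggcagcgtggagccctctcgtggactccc
Gdnf: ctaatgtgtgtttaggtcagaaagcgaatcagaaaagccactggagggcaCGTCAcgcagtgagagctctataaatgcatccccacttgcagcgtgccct
The AP-1 motif TGANTCA, present in 7.81% of all windows, was in 1 other Bdnf window. A match describes letters in a window, and the data do not resolve which start site was used.

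Ntf3, the TrkC ligand, was close to the detection limit. Sham libraries had 46, 17 and 10 counts, ICH libraries 0, 3 and 8, and ICH+P7C3-A20 libraries 53, 22 and 0. All ICH libraries were below all sham libraries, as for 18.8% of all tested genes, while the treated libraries spanned the whole range from 0 upwards. A count of 0 allows up to 3 counts, which is 0.0526 CPM in ICH 1 and 0.0578 CPM in ICH+P7C3-A20 3, for counting error only. The log2 change was -2.72 ± 1.44 in ICH against sham (edgeR adjusted p = 0.205) and 2.88 ± 1.45 between ICH+P7C3-A20 and ICH (edgeR adjusted p = 0.259), so neither passed the test. Without ICH+P7C3-A20 1 the change against sham went from 0.16 to -1.30, and the adjusted p over all fits that left out 1 library was 0.743 to 0.996. Bdnf and Ntf3 are paralogues whose longest identical coding run is 17 bases, which does not measure how much sequence they share in all. The run is shown in capitals with 24 bases before and 20 after, at chr2:109724081-109724141 (+) and chr6:126101740-126101800 (-).
Bdnf: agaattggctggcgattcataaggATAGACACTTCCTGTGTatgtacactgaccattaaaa
Ntf3: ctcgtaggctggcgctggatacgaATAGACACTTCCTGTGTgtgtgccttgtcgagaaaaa
Both ligands were highest in ICH+P7C3-A20 1 (53 counts of Ntf3 and 748 of Bdnf), while ICH+P7C3-A20 3 had 0 counts of Ntf3 and 313 of Bdnf.

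Gdnf was lower in each ICH library than in each sham library but did not pass the test. The sham libraries held 3.93, 4.62 and 4.91 CPM, the ICH libraries 2.56, 2.64 and 3.34 CPM and the ICH+P7C3-A20 libraries 1.19, 2.71 and 3.47 CPM. Sham stood above both other groups without overlap, and those 2 overlapped. Of all tested genes, 18.8% were lower without overlap in ICH than in sham and 7.84% were lower without overlap in ICH+P7C3-A20 than in sham. The log2 change was -0.66 ± 0.34 in ICH against sham (95% interval -1.42 to 0.11, edgeR adjusted p = 0.200). In ICH+P7C3-A20 against sham it was -0.87 ± 0.35 (unadjusted p = 0.0302, edgeR adjusted p = 0.212), or -0.54 without ICH+P7C3-A20 1 (0.311). ICH+P7C3-A20 and ICH differed by -0.21 ± 0.35 (edgeR adjusted p = 0.782). Gdnf is known in the striatum, whose projection neuron markers fell in ICH, and their part in the Gdnf values was not tested.

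Vgf, the neuropeptide precursor, was highest in sham 3 and lowest in ICH 3. The sham libraries held 128, 185 and 204 CPM, the ICH libraries 136, 146 and 120 CPM and the ICH+P7C3-A20 libraries 171, 174 and 152 CPM. Each treated library was above each ICH library, as for 15.1% of all tested genes, while sham 1 fell inside the ICH range. The log2 change was -0.37 ± 0.16 in ICH against sham (95% interval -0.72 to -0.01, edgeR adjusted p = 0.123). It passed the test without sham 1 (-0.54, edgeR adjusted p = 0.0149) and in no other fit. ICH+P7C3-A20 differed from ICH by 0.31 ± 0.16 (edgeR adjusted p = 0.271) and from sham by -0.06 ± 0.16 (edgeR adjusted p = 0.911). For each 1000 CPM of pan-neuronal markers Vgf held 32.6, 47.0 and 57.5 CPM in sham, 55.3, 60.9 and 54.1 CPM in ICH and 38.2, 60.6 and 49.8 CPM in ICH+P7C3-A20, with all groups overlapping.

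Fgf2 was higher in every ICH library than in every sham library, yet the call turned on 1 library of the treated group. The sham libraries held 13.3, 10.9 and 14.6 CPM, the ICH libraries 29.1, 26.5 and 23.3 CPM and the ICH+P7C3-A20 libraries 1.02, 16.2 and 21.6 CPM. ICH lay above both other groups without overlap, as did 23.3% of all tested genes against sham and 18.5% against ICH+P7C3-A20. ICH+P7C3-A20 1 lay far below everything else. The ICH mean of 26.3 ± 2.94 CPM was 2.03-fold the sham mean of 12.9 ± 1.88 CPM. The log2 change was 1.02 ± 0.76 in the fit of all 9 libraries, which share 1 estimate of spread (edgeR adjusted p = 0.389). It was called with only sham and ICH fitted (1.03, edgeR adjusted p = 0.00159) and without ICH+P7C3-A20 1 (1.02, edgeR adjusted p = 0.00118). ICH+P7C3-A20 differed from ICH by -1.02 ± 0.76 (edgeR adjusted p = 0.476), or -0.48 without ICH+P7C3-A20 1 (0.206). Against sham the change was 0.00 ± 0.76 (edgeR adjusted p = 1), or 0.55 without that library (0.115).

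In ICH+P7C3-A20 1 Fgf2 had 49 counts, against 593 to 1660 in the other libraries. It was the 1 gene of 9783 with at least 500 counts in all other libraries whose count there was under an eighth of the lowest of them. The other libraries had 0 to 2 such genes each, a count made after the value was seen. Markers of astrocytes, the main known source, summed to 3610 CPM in that library, within the 2522 to 3727 CPM of the others, while its reactive astrocyte markers (1175 CPM) were the lowest of the treated group and its oligodendrocyte markers the lowest of all. For each 1000 CPM of astrocyte markers Fgf2 held 4.99, 4.32 and 5.41 CPM in sham, 10.4, 8.20 and 8.82 CPM in ICH and 0.283, 5.09 and 5.80 CPM in ICH+P7C3-A20, so ICH again stood above both other groups. For each 1000 CPM of reactive astrocyte markers, all 7 of which rose in ICH, it held 58.5 to 106 CPM in sham, 5.23 to 5.44 CPM in ICH and 0.869, 8.98 and 9.43 CPM in ICH+P7C3-A20. On that scale sham was highest, and 2 of the 3 treated libraries lay above every ICH library, the reverse of their order in CPM. The reactive marker sum itself was 138 to 215 CPM in sham and 4449 to 5361 CPM in ICH. An order set so largely by the divisor does not give Fgf2 per cell. Fgf2 (ENSMUSG00000037225, chromosome 3, 37348346 to 37410108) overlaps the antisense gene Nudt6 by 640 exonic bases, which is 9.44% of Fgf2 and 38.2% of Nudt6. Nudt6 counts were 56, 50 and 65 across the sham libraries, 63, 42 and 89 across the ICH libraries and 140, 75 and 32 across the treated libraries, with the highest of these in the library where Fgf2 was lowest. The part of the overlap in either count was not tested.

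Genes of the surrounding pathways were counted in 6 lists, in shares to be read against the 26.0% called over all genes in ICH against sham and the 8.74% in ICH+P7C3-A20 against ICH. In ICH the shares of the FGF and GDNF lists (5 of 19 and 3 of 10) were near that of all genes. With treatment the FGF share (1 of 19) was below it and that of the Trk and p75 partners (2 of 18) near it. Of 10 tested neurotrophin ligand and processing genes, 3 rose and 3 fell in ICH. Furin, which cleaves pro-neurotrophins inside the cell, rose (log2 change 0.95 ± 0.11, edgeR adjusted p = 1.16e-04), as did the plasminogen activator Plat (0.57 ± 0.10, 0.00162) and the protease Mmp9. The sortilin-family receptor genes Sorcs1 and Sorcs3 fell (-0.61 ± 0.11 and -0.82 ± 0.17, edgeR adjusted p 0.0024 and 0.00484), as did the prohormone convertase Pcsk1 (-1.08 ± 0.23, 0.00558). With treatment Pcsk1 and Sorcs3 were higher than in ICH (0.97 ± 0.23 and 0.73 ± 0.17) and Furin and Plat lower (-0.48 ± 0.11 and -0.41 ± 0.10), with edgeR adjusted p of 0.022 to 0.0276. None of these 4 calls remained without ICH+P7C3-A20 1, ICH 2 or ICH 3, where the list had 0 calls, and without ICH 1 the list had 1, Sorcs3. Furin was also lost without ICH+P7C3-A20 3 and Plat without ICH+P7C3-A20 2. Furin was higher in ICH+P7C3-A20 than in sham (0.47 ± 0.11, edgeR adjusted p = 0.0293), 1 call of 10 against 5.32% of all genes, lost without ICH 1, ICH+P7C3-A20 1, 2 or 3, or sham 2 or 3.

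Of 18 Trk and p75 partners, 3 rose and 5 fell in ICH. The adaptor genes Shc1 and Sh2b2 and the kinase gene Ripk2 rose (1.201 ± 0.21, 1.18 ± 0.24 and 0.76 ± 0.17, edgeR adjusted p 0.00178 to 0.00873). Those that fell included Kidins220, Shc2, Frs2 and Maged1. The 5 lower calls became 2 without sham 1 or ICH 1, 1 without ICH 2 and 0 without ICH 3. With treatment the neuronal adaptor Shc2 and the p75 co-receptor Lingo1 were higher than in ICH (0.53 ± 0.12 and 1.21 ± 0.28, edgeR adjusted p 0.0257 and 0.0294) and 0 of 18 were lower. The list's 2 higher calls became 1 without ICH+P7C3-A20 1 or ICH 2 and 0 without ICH 1 or ICH 3. Shc2 itself was called in 4 and Lingo1 in 7 of the 9 fits that left out 1 library. Against sham edgeR called 0 of 18, with 6 at an unadjusted p under 0.05, and Ripk2 and Rtn4r came closest (0.64 ± 0.17 and 1.29 ± 0.37, edgeR adjusted p 0.0637 and 0.0778).

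In the GDNF list 1 of 10 tested genes rose in ICH and 2 fell. Manf, an endoplasmic reticulum stress-induced factor of a separate family that the list includes, rose (0.96 ± 0.13, edgeR adjusted p = 3.70e-04). The co-receptor genes Gfra2 and Gfra4 fell (-0.70 ± 0.16 and -0.38 ± 0.13, edgeR adjusted p 0.0104 and 0.0463). The Gfra4 call held in 2 of the 9 fits that left out 1 library. With treatment Gfra2 was higher than in ICH (0.79 ± 0.16, edgeR adjusted p = 0.0174) and Manf lower (-0.60 ± 0.13, 0.0186), and both calls were lost without ICH+P7C3-A20 1, ICH 1 or ICH 3, and that of Manf also without ICH 2. The Gfra2 means were 24.98 ± 3.45 CPM (sham), 15.4 ± 2.90 CPM (ICH) and 26.7 ± 3.36 CPM (ICH+P7C3-A20). Of 19 FGF pathway genes, 4 rose and 1 fell in ICH. Fgfrl1, an FGF receptor that lacks the kinase domain, averaged 12.6 ± 2.71 CPM across the sham libraries and 65.4 ± 2.87 CPM across the ICH libraries (2.38 ± 0.19, edgeR adjusted p = 1.32e-05) and 30.8 ± 6.35 CPM with treatment (-1.09 ± 0.18 against ICH, 0.00766). It stayed above sham in treated brains (1.29 ± 0.18, edgeR adjusted p = 0.00255), and these 3 calls held without any 1 library. Of 12 other fits, all kept the call in ICH against sham. The call of treated brains held in 11 of 12 against ICH and in 10 of 12 against sham. Fgfr4, the feedback inhibitor Spry1 and the target Etv4 also rose (0.93 ± 0.16 and 0.74 ± 0.16 for the last 2), and Fgf9 fell (-0.84 ± 0.18).

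Vgf belongs to the granin family, and of 13 granin and dense-core vesicle genes 2 rose and 7 fell in ICH. Scg5, Pcsk2 and Pcsk1, which process or chaperone prohormones, fell (-0.71 ± 0.08, -0.77 ± 0.12 and -1.08 ± 0.23, edgeR adjusted p 1.53e-04 to 0.00558). C3ar1, a complement receptor that also binds a VGF peptide and is found on microglia and macrophages, rose from 2.72 ± 0.59 to 63.8 ± 2.98 CPM (4.55 ± 0.29, edgeR adjusted p = 6.31e-06). The microglia markers rose alongside it, 5 of 5, and the monocyte and macrophage markers, 6 of 6. With treatment 4 of 13 were higher than in ICH, among them Cadps2, which primes dense-core vesicles and BDNF release (1.41 ± 0.20, edgeR adjusted p = 0.00676), and Scg5 (0.49 ± 0.08, 0.00856), and C3ar1 was lower (-1.55 ± 0.25, 0.00765). Without ICH+P7C3-A20 1, ICH 1, ICH 2 or ICH 3 the 4 higher calls became 2. C3ar1 stayed above sham in treated brains (3.01 ± 0.27, edgeR adjusted p = 3.52e-04), and Scg3 was the other of 2 calls there (0.39 ± 0.10, 0.0488), a call that held in 1 of the 9 fits that left out 1 library.

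Of 15 CREB and activity-regulated genes, which include inducers and co-targets of Bdnf transcription, 6 fell and 0 rose in ICH. Egr1 averaged 339 ± 68.3 CPM across the sham libraries, 137 ± 12.8 CPM across the ICH libraries and 263 ± 32.4 CPM with treatment (-1.31 ± 0.16 and then 0.94 ± 0.16, edgeR adjusted p 1.90e-04 and 0.00829). Nr4a1 fell by 1.47 on the log2 scale and rose by 1.56 ± 0.27 with treatment (edgeR adjusted p 0.00309 and 0.00997). Npas4, a neuron-specific activity factor that acts on Bdnf promoters, fell by 1.05 and rose by 1.13 ± 0.24 (edgeR adjusted p 0.00849 and 0.019), the latter call holding in 6 of the 9 fits that left out 1 library. Egr4 also fell (-1.42 ± 0.26), with Egr2 and Homer1. The treatment calls were 3 higher and 0 lower, the same counts without ICH+P7C3-A20 1, and 6, 7 or 5 higher without sham 1, sham 3 or ICH+P7C3-A20 2. Over all 9 fits that left out 1 library the higher calls ranged from 2 to 7. Against sham edgeR called 0 of 15, with 1 at an unadjusted p under 0.05, Egr1 (-0.37 ± 0.16, edgeR adjusted p = 0.24). All 7 pan-neuronal markers fell in ICH too and 1 of 7 rose with treatment, and their part in these values was not tested. Bdnf itself was among the uncalled genes in all 3 comparisons.

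**Figure D4:**
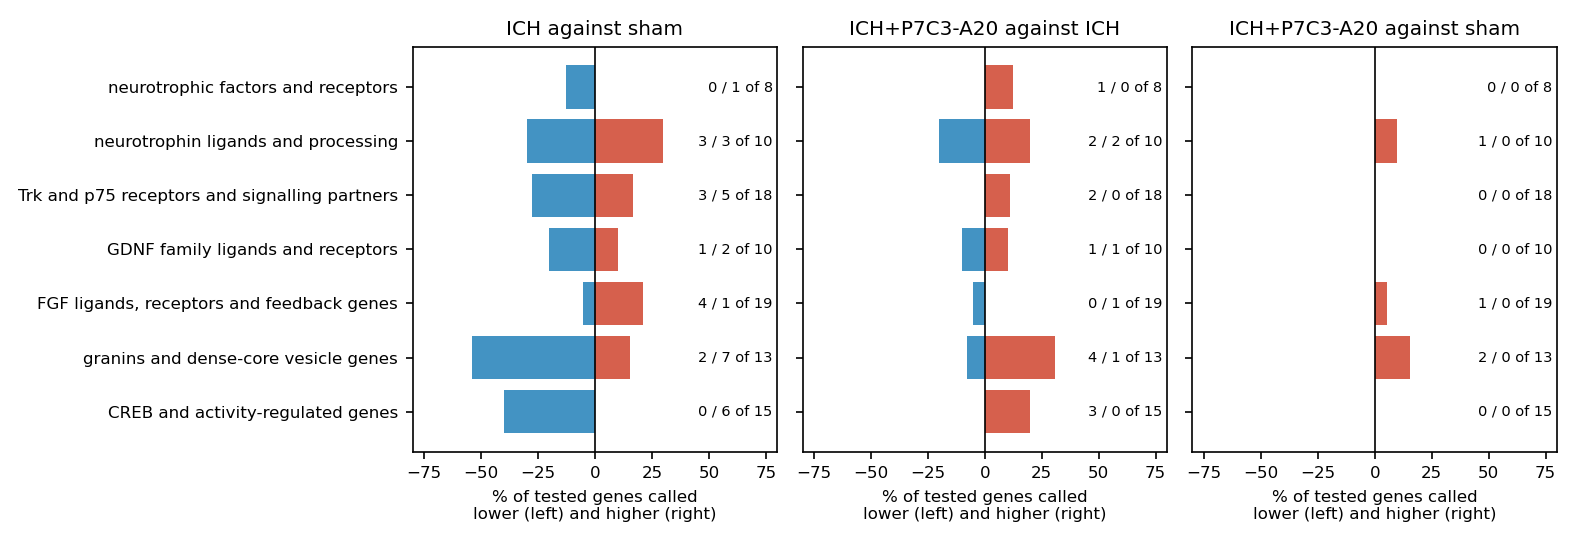
Share of tested genes called by edgeR (adjusted p under 0.05) in the members and in 6 pathway lists, lower to the left and higher to the right, for each comparison, with the numbers higher / lower of tested at the right. Of the granin and activity-regulated genes, 7 of 13 and 6 of 15 were lower in ICH than in sham, and 4 of 13 and 3 of 15 were higher in ICH+P7C3-A20 than in ICH.

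The genes whose pattern over the 9 libraries was most like each member's were found by Pearson's r of log2 CPM among 10315 genes of mean FPKM at least 2, a description that includes group differences and library make-up. Ntrk3 was most like Fat3, Anks1b and Ash1l (r 0.99, 0.99 and 0.98). Bdnf was most like Rtn4rl2, Ccn3 and the cortical marker Slc17a7 (0.94, 0.94 and 0.93). Fgf2 was most like Kif5b, Nkx6-2 and Mpp6 (0.97, 0.96 and 0.95). The Fgf2 value of ICH+P7C3-A20 1, 1.02 CPM against 10.9 to 29.1 CPM elsewhere, weighs heavily in these 3 correlations. Ntrk2 was most like Mtss2, Crtc2 and Map11 (0.96, 0.95 and 0.94), Vgf like Particl and Fxr2 (0.95 and 0.94) and Gdnf like Tbc1d12, Utrn and Pls1 (0.94, 0.94 and 0.92). For Ngfr they were Armh3, Golph3 and Nolc1 (0.96, 0.95 and 0.94) and for Ntf3 Slc23a2, Cds1 and Nsd1 (0.96, 0.94 and 0.93). With so many genes compared over 9 libraries, values this high occur for every member, including those whose groups did not differ.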

How the data were processed

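The authors deposited 1 table with FPKM values and whole-number estimated counts per gene and library, per the file headers. Libraries were stranded (dUTP), per the labels' protocols, and the submitters' processing notes list cutadapt 1.9, HISAT2 2.0.4 and StringTie 1.3.4d. Build, annotation, strand setting and the counting tool were not given in these sources. For members with at least 100 counts, the length implied by count and FPKM matched the merged exons of GENCODE M21 closely (Ntrk3 30167 to 30185 against 30170 bases), and 7 of 8 members have identical positions there (Ntf3 does not).

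The main test was a robust quasi-likelihood fit in edgeR 4.0.16 (R 4.3.3) with 1 coefficient per group, all 9 libraries and 6 residual degrees of freedom. Genes passed filterByExpr at a count of 10 and a total of 15, with TMM scaling. Genes were called two-sided at an adjusted p under 0.05. All values were whole, so rounding changed none. Replicates are separate mice per the series design, and 0 of 36 library pairs were identical. Named were all members, per pathway list and comparison up to 4 called genes of smallest p (2 genes where none was called) and the 3 genes most like each member. A few genes chosen by these rules are left unreported. Further called genes were named to complete short counts, after their values were seen. Members and lists were chosen with earlier results of these data known. Alternatives were other filters, scalings, DESeq2 1.42.0, limma 3.58.1 on log2(FPKM + 1) or log2(FPKM + 0.1), the compared groups alone, a replicate block, each library left out and, chosen after seeing the data, a term for mitochondrial share. Promoters came from RefSeq (GRCm38.p6). Figures used matplotlib 3.10.9 in Python 3.11.15.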

Additional observations from a re-analysis of the deposited data

How the results depend on the processing

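Of the 24 changes of the members, 490 values came from alternatives, of which 449 kept direction and side of the threshold, 8 lost a call (Ntrk3 in ICH+P7C3-A20 against ICH), 3 gained one (Fgf2 and Vgf in ICH against sham) and 30 turned sign, 0 of them in a called change. The number of members called in ICH against sham went from 1 to 2 with only the 2 groups fitted and ranged from 1 to 2 with each library left out. In ICH+P7C3-A20 against ICH it went from 1 to 0 with limma on log2(FPKM + 1), on log2(FPKM + 0.1) and on genes of mean FPKM at least 1, and ranged from 0 to 1 with each library left out. It was 0 for ICH+P7C3-A20 against sham in every alternative.

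Signs turned for Fgf2 in ICH+P7C3-A20 against sham, from 0.00, to -0.0268 with no filter, -0.022 with DESeq2 size factors, -0.0241 with DESeq2, -0.15 with limma on log2(FPKM + 1) with and without the mean FPKM filter, -0.62 on log2(FPKM + 0.1), -0.25 with quantile normalization, -0.0139 with only the 2 groups, -0.0047 with the mitochondrial term, and -0.58 to 0.55 with each library left out. Ntf3 in that comparison went from 0.16 to -0.0934 on log2(FPKM + 0.1), -0.0144 with quantile normalization and -1.30 to 1.05 with each library left out. Bdnf in ICH against sham went from 0.02 to -0.0174 with upper quartile scaling, -0.11 with quantile normalization and -0.27 to 0.33 with each library left out, and Ntrk2 from 0.03 to -0.0095 with upper quartile scaling and -0.10 to 0.13. With each library left out, Vgf in ICH+P7C3-A20 against sham ranged from -0.23 to 0.0836, Gdnf in ICH+P7C3-A20 against ICH from -0.54 to 0.12 and Ngfr there from -0.89 to 0.63. The cause was not tested.

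No pairing by replicate number was detected. Same-numbered deviations from group means correlated at -0.128 to 0.0919, and 0 of 9 pairs exceeded 0.1. Differently numbered libraries correlated at -0.0784 to 0.192, and 1 of 18 pairs exceeded 0.1. Such correlations cannot show whether same-numbered mice were handled together. With a replicate block the members called stayed at 1, 1 and 0, Ntrk3 was at -0.78 and 0.51 (edgeR adjusted p 0.00272 and 0.0454), Fgf2 turned to -0.24 and Ntf3 to -0.10 in ICH+P7C3-A20 against sham, and over all genes 5326, 1697 and 944 were called against 5701, 1914 and 1165.

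Over all genes, calls in ICH against sham were 3474 and 3483 with limma on log2(FPKM + 1) and log2(FPKM + 0.1), and 3527 on genes of mean FPKM at least 1. In ICH+P7C3-A20 against ICH they were 3476 with DESeq2, 3143 with the mitochondrial term, 1068 and 520 with limma on log2(FPKM + 1) and log2(FPKM + 0.1), and 571 to 813 without any 1 of ICH 1, ICH 2, ICH 3 or ICH+P7C3-A20 1. In ICH+P7C3-A20 against sham they were 2109 with DESeq2, 122, 283, 399 and 293 with the 4 limma settings, 435 with only the 2 groups, and 538 to 774 without sham 1, ICH+P7C3-A20 2 or ICH+P7C3-A20 3. For the pathway lists, 279 of 378 counts were within 1.5 times the reported one. The activity-regulated genes called in ICH+P7C3-A20 against ICH ranged from 0 to 9 over the settings that kept all libraries. Depth limits Ntf3, with at most 53 counts in a library.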
